A study of Mus musculus with 3 samples.

Results

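The solute carrier (Slc) genes expressed in Lipid A-stimulated macrophages are described here. Members were the genes with a protein-coding transcript whose symbol begins with Slc and a number and whose level averaged 1 TPM or more over the 3 libraries. TPM is a gene's share of all transcripts after correction for length, scaled to the same total in each library. Lactate, glucose, iron and cystine or arginine carriers named Slc2a1, Slc2a6, Slc16a1, Slc16a3, Slc7a2, Slc7a11, Slc11a1, Slc11a2 and Slc40a1 were left out by name. The rule gave 153 members of 371 Slc genes, within 21901 genes that have a protein-coding transcript and 55536 genes in all. The members were thus chosen by their mean TPM in these same libraries, so levels are given as a description and carry no test.

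The series holds 3 total RNA-seq libraries of 1 group: bone marrow-derived macrophages (BMDM) of strain C57BL/6J mice that had received Lipid A at 100 ng/ml and were taken 40 minutes later. Cytosolic RNA was isolated and depleted of ribosomal RNA. Lipid A, the membrane anchor of bacterial lipopolysaccharide, triggers Toll-like receptor signalling, and BMDM are macrophages grown from marrow cells in culture. The libraries are labelled biological replicates 1, 2 and 3 of 1 donor record, so a p-value measures only the spread between these samples. Unstimulated cells and other cell fractions were not part of the comparison, and the values therefore give neither a response to Lipid A nor an enrichment in the cytosol. Animal sex and age are given as not collected. Expected counts in genes came to 37861150, 37136495 and 58889061 in replicates 1, 2 and 3, and nuclear protein-coding genes held 32.8%, 36.2% and 23.5% of all TPM. All 8 macrophage markers examined were at 1 TPM or more, with a median of 262 TPM. None of 12 markers of other cell types reached 1 TPM; their summed level was 0.83, 0.67 and 0.82 TPM, and Ly6g (neutrophils), Cd3e (T cells) and Slc4a1 (red cells) were listed at 0 in every library.

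Solute carriers are membrane proteins that move small molecules, such as amino acids, sugars, nucleosides, metals and inorganic ions, down or against a gradient without splitting ATP themselves. They sit in the plasma membrane, in the membranes of endosomes, lysosomes, the endoplasmic reticulum and the Golgi, and, for the large SLC25 family, mostly in the inner mitochondrial membrane. In macrophages they supply fuel and building blocks, load and drain the phagosome and lysosome, and handle the metals and haem of ingested cells.

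Promoter sequences were taken from RefSeq (GRCm38.p6), as windows of 250 bases before to 50 bases after an annotated gene start. An entry was matched by symbol for 118 of the 153 members. The E-box CACGTG, which reads the same on both strands, lay in a window of 23 of these 118 members (19.5%), against 12.7% of 7597 coding genes of 1 TPM or more and 8.09% of 27025 genes with an entry. The ETS core CCGGAAG, searched on both strands, lay in 31 members (26.3%), against 23.1% of coding genes of 1 TPM or more and 9.93% of all genes with an entry. The amino acid response element TGATGNAA, also searched on both strands, lay in 3 members (2.54%), against 2.82% and 4.51%. None of these motifs overlaps another in the windows shown. Slc20a1 (a sodium-phosphate cotransporter), Slc36a1 (a proton-coupled amino acid transporter of lysosomes) and Slc35a5 (a nucleotide sugar transporter family member) were the 3 members with the E-box 2 times in the window nearest to the start of their main transcript; they are shown with the E-box in capitals. Slc3a2 and Slc25a3, leading members that transport amino acids (as a partner chain) and phosphate into mitochondria, held no E-box there and are shown with the ETS core in capitals. Each line runs 5′ to 3′ on the gene's own strand.
Slc20a1, chr2:129198523-129198822, plus strand: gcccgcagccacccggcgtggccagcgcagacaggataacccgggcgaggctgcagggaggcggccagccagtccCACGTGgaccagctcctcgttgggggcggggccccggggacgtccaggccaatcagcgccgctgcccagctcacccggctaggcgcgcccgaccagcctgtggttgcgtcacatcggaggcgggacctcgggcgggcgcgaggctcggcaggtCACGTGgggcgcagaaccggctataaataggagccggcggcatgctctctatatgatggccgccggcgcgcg
Slc36a1, chr11:55204090-55204389, plus strand: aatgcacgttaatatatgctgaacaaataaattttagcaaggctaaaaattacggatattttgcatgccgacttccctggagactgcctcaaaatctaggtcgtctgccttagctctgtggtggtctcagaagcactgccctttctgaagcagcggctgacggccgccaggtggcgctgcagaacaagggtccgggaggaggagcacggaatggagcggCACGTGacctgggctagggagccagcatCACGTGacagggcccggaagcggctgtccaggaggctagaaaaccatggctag
Slc35a5, chr16:45158624-45158923, minus strand: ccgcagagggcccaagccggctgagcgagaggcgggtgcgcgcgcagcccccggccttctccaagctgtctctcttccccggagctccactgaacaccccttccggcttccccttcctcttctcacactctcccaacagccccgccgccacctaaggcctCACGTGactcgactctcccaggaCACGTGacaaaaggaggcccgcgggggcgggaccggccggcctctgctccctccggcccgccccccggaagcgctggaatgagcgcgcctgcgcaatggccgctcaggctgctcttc
Slc3a2, chr19:8713848-8714147, minus strand: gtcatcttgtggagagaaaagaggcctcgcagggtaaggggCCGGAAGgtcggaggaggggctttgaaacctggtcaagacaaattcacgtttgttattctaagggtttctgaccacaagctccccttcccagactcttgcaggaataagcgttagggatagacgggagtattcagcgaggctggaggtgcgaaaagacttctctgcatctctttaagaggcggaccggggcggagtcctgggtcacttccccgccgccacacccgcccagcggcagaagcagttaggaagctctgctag
Slc25a3, chr10:91123918-91124217, minus strand: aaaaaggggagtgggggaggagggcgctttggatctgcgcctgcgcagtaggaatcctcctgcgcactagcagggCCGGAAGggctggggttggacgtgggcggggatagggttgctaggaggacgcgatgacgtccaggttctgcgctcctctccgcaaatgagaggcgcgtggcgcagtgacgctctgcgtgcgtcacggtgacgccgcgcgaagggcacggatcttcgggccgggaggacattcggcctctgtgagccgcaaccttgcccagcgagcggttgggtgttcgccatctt
A match to these letters is a description of the window and not evidence of a bound factor. In Slc20a1 the E-boxes began 175 and 22 bases before the start, in Slc36a1 31 and 3 bases before it, and in Slc35a5 90 and 67 bases before it. Slc36a1 stood at 18.64, 18.02 and 13.46 TPM in replicates 1, 2 and 3, and Slc35a5 at 12.23, 9.12 and 6.44 TPM. Both lay above the members' median, and Slc20a1, Slc3a2 and Slc25a3 follow with their classes.

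The members spanned levels from 1.14 to 167 TPM, with a median of 8.04 TPM, against 8.60 TPM for coding genes of 1 TPM or more. Of the members, 6 averaged 100 TPM or more, 56 lay at 10 to 100, 39 at 5 to 10, 34 at 2 to 5 and 18 at 1 to 2 TPM. The smallest count behind any member in any library was 71. Of all Slc genes 43.4% reached 1 TPM, beside 43.3% of all genes with a protein-coding transcript. The summed level of the members was 2850, 2894 and 2101 TPM in replicates 1, 2 and 3, which was 0.870%, 0.800% and 0.893% of the TPM of nuclear protein-coding genes. The 10 highest members held 43.3% ± 0.21 (SD, n = 3) of it. In bulk RNA of this kind, fewer cells that express a gene and less RNA per cell cannot be told apart.

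**Figure D1:**
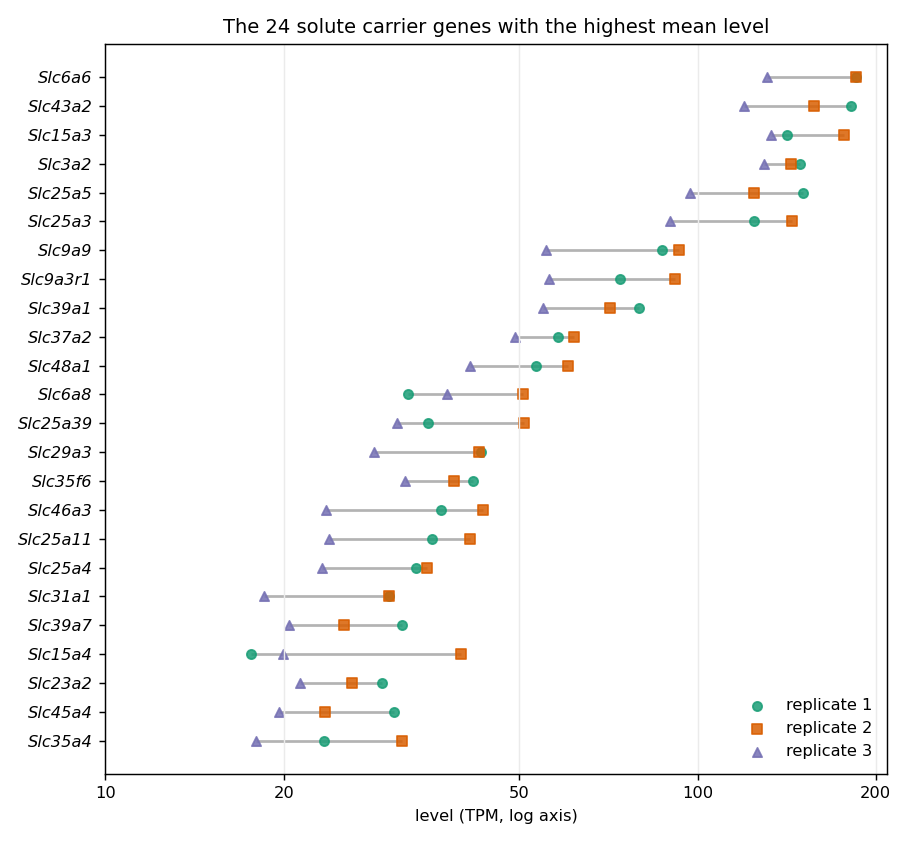
Level in TPM (log axis) of the 24 members with the highest mean, 1 symbol per library and a grey line over their range. Replicate 3 is the lowest library for most genes, and Slc6a6 at 131 to 186 TPM tops the list.

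Replicate 3 was the lowest library by TPM for 139 of 153 members (90.8%), and likewise for 92.9% of coding genes of 1 TPM or more. TPM of most coding genes therefore ran lower in that library, and the spread of the members was tested on counts normalised between libraries instead. The SDs of TPM given below include this shift, so they do not rank genes by how stable they were between replicates.

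Amino acid and peptide carriers held the largest share of the summed level: 20 members of 69 Slc genes of these families took 31.7% ± 1.2 (SD, n = 3), with a median of 16.7 TPM. Classes follow gene families, so a family's exceptions stay in its class. Slc6a6, the taurine transporter (chr6:91684053-91759066, plus strand, mm10), stood at 185.54, 184.85 and 130.96 TPM. It was the highest member by mean, and its replicates 1 and 2 were almost equal while replicate 3 was lower. Slc43a2, a facilitative carrier of large neutral amino acids (chr11:75531694-75577575, plus strand), stood at 181.83, 157.28 and 119.66 TPM. Slc15a3, which moves histidine and small peptides out of lysosomes (chr19:10839727-10859362, plus strand), stood at 141.53, 176.85 and 133.03 TPM. By TPM its highest library was replicate 2, but by normalised log2 CPM it was replicate 3 (8.93, 9.15 and 9.34). Slc3a2, the heavy chain that carries several Slc7 light chains to the plasma membrane (chr19:8706882-8723369, minus strand), stood at 149.15, 143.64 and 129.28 TPM. The ranges of these 4 genes overlap. Within each library Slc6a6 was above Slc43a2 and Slc3a2, while Slc15a3 was below Slc43a2 in replicate 1 and above it in replicates 2 and 3. Next came the creatine transporter Slc6a8 at 32.46, 50.68 and 37.77 TPM.

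The light chains that pair with Slc3a2 were far lower. Slc7a8 was highest of them among members at 23.91, 26.52 and 19.22 TPM, followed by Slc7a7 at 12.51, 14.50 and 10.93 TPM, and Slc7a6 lay just inside the threshold at 1.46, 1.22 and 1.12 TPM. Slc7a5, the best known leucine-importing partner, was no member at 0.78, 0.82 and 0.43 TPM. On the log2(TPM + 1) scale Slc3a2 exceeded Slc7a5 by 6.41 ± 0.10 (SD, n = 3). Because Slc7a5 lay under the pseudocount, this size is set in part by it: it was 7.54 with a pseudocount of 0.1, 4.68 with 5, and 5.48 in the second transcript table. Of the system A and N family, Slc38a10 led at a mean of 20.7 TPM, and the neighbours Slc38a2 and Slc38a1, 44478 bases apart on chromosome 15, averaged 9.75 and 16.6 TPM. The lysosomal arginine sensor Slc38a9 averaged 4.73 ± 0.45 TPM. The glutamine carrier Slc1a5 averaged 2.36 ± 0.67 TPM and the arginine carrier Slc7a1 1.84 ± 0.24 TPM.

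Mitochondrial carriers were the largest class, with 33 members of 47 SLC25 genes, and took 21.2% ± 1.0 of the summed level with a median of 6.94 TPM. By CPM, which leaves transcript length in, their share was 12.6%. Slc25a5, an ADP/ATP exchanger, stood at 150.82, 124.64 and 97.16 TPM. Its paralogue Slc25a4 stood at 33.45, 34.90 and 23.25 TPM, which put the pair at a log2 ratio of 1.99 ± 0.17 in favour of Slc25a5, higher in 3 of 3 libraries. Slc25a3, the mitochondrial phosphate carrier, stood at 124.57, 144.15 and 89.70 TPM. These carriers of ADP, ATP and phosphate were the only SLC25 members at 100 TPM or more. Below them came Slc25a39, which serves mitochondrial glutathione import (35.05, 50.89 and 31.02 TPM), and the oxoglutarate carrier Slc25a11 (35.65, 41.20 and 23.87 TPM). The citrate carrier Slc25a1 averaged 18.8 ± 4.8 TPM, the dicarboxylate carrier Slc25a10 16.5 ± 3.0 TPM and the iron carriers Slc25a28 and Slc25a37 6.21 ± 2.1 and 4.85 ± 1.1 TPM. Slc25a17, a peroxisomal member of the family, averaged 8.59 ± 2.3 TPM.

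By TPM, metal ion carriers came next with 22 members of 33 genes and 11.6% ± 0.55 of the summed level. Slc40a1, Slc11a1 and Slc11a2 of these families were left out by name, so this share and rank are without them. The zinc importer Slc39a1 stood at 79.53, 71.26 and 54.81 TPM, and the haem transporter Slc48a1, which empties haem from the phagolysosome, at 53.36, 60.33 and 41.25 TPM. Slc39a1 was above Slc48a1 in each library. The copper importer Slc31a1 stood at 30.13, 30.07 and 18.56 TPM, close to Slc39a7, which releases zinc from the endoplasmic reticulum, at 31.66, 25.33 and 20.41 TPM. Of the zinc exporters, Slc30a1 of the plasma membrane averaged 17.2 ± 1.5 TPM and Slc30a5 of the secretory pathway 13.1 ± 2.7 TPM. In all 10 of 14 SLC39 genes, both SLC31 genes and all 3 SLC41 genes reached 1 TPM.

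Nucleoside and nucleotide sugar carriers gave 22 members of 34 genes and 9.89% ± 0.24 of the summed level, mostly Golgi and endoplasmic reticulum carriers of the SLC35 family (19 of 27 genes). The lysosomal nucleoside carrier Slc29a3 stood at 43.10, 42.67 and 28.41 TPM and Slc35f6 at 41.72, 38.85 and 32.04 TPM. Slc35a4 followed at 23.40, 31.66 and 17.98 TPM. The plasma membrane nucleoside carrier Slc29a1 was below its lysosomal paralogue Slc29a3, at a log2 ratio of -0.96 ± 0.16.

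Carriers of inorganic ions gave 20 members of 56 genes and 9.23% ± 0.39 of the summed level. Slc9a9, an endosomal sodium-proton exchanger, led at 87.14, 93.18 and 55.39 TPM. It was the one inorganic ion carrier among the 15 highest members. The phosphate importer Slc20a1 (chr2:129198764-129211616, plus strand) stood at 19.94, 13.19 and 18.38 TPM and its paralogue Slc20a2 at 2.11, 1.12 and 1.57 TPM. Both had their lowest TPM in replicate 2.

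Carriers of organic solutes and vitamins gave 23 members of 94 genes and 8.42% ± 0.18 of the summed level. Slc46a3, a lysosomal carrier, stood at 36.87, 43.39 and 23.54 TPM, the vitamin C importer Slc23a2 at 29.28, 26.04 and 21.27 TPM, and the monocarboxylate carrier Slc16a7 at 23.91, 28.14 and 15.55 TPM. Among families of organic solutes, 3 of 25 SLC22 genes, 2 of 7 SLC10 genes and 7 of 14 SLC16 genes reached 1 TPM, beside 43.3% of all coding genes.

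Sugar carriers gave 10 members of 34 genes and 4.54% ± 0.080 of the summed level. Slc37a2, a sugar phosphate exchanger of the endoplasmic reticulum, stood at 58.02, 61.88 and 49.14 TPM, and all 4 SLC37 genes were members. It exceeded Slc37a4, the glucose 6-phosphate transporter of that membrane, by a log2 ratio of 3.84 ± 0.10. Slc45a4 stood at 30.77, 23.49 and 19.63 TPM, and Slc37a3 at 10.35, 12.46 and 7.07 TPM. The facilitative glucose carriers that were members were Slc2a8 at 5.58 ± 1.55, Slc2a9 (also a urate carrier) at 2.64 ± 0.41 and Slc2a3 at 1.45 ± 0.42 TPM. The remaining 3 members are named after a carrier without being one: the scaffold protein Slc9a3r1 stood at 74.07, 91.49 and 56.13 TPM, Slc4a1ap averaged 8.28 ± 1.4 TPM and Slc7a6os 6.11 ± 0.21 TPM.

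**Figure D2:**
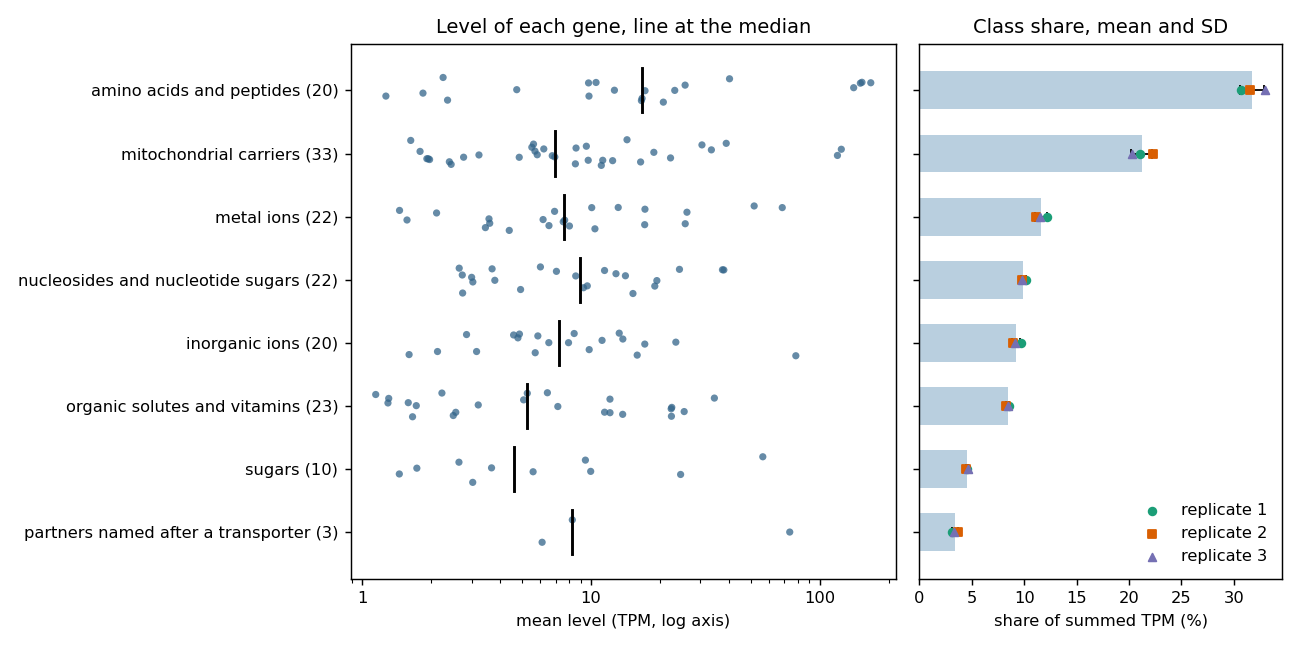
Left, mean TPM of each member (log axis) by transport class with the number of members in brackets and a line at the class median. Right, each class's share of the members' summed TPM as the mean with SD (bar and whisker) and the 3 libraries (symbols), from 31.7% for amino acids and peptides down to 3.37% for partner proteins.

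At the threshold, Slc17a9 (1.14 TPM), Slc7a6 (1.27 TPM) and Slc22a18 (1.29 TPM) lay just inside, and Slc39a12 (0.887 TPM), Slc5a3 (0.787 TPM) and Slc25a35 (0.730 TPM) just outside. In all 210 Slc genes averaged under 1 TPM. Of these 184 were under 0.1 TPM and 104 had a count of 0 in all 3 libraries. A count of 0 allows up to 3 counts, which is 0.0792, 0.0808 and 0.0509 CPM (counts scaled by the library total) in replicates 1, 2 and 3, for counting error only.

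Carriers and carrier partners with other names were examined beside the members. Of 24 such genes 21 reached 1 TPM. The highest were Unc93b1, a chaperone of endosomal Toll-like receptors, at 218.27, 185.54 and 144.23 TPM, Glmp, the lysosomal partner of the carrier Mfsd1, at 126.12, 133.96 and 89.11 TPM, and Mpc1, a subunit of the mitochondrial pyruvate carrier, at 99.62, 112.80 and 75.49 TPM. Those under 1 TPM were the organic anion carriers Slco3a1 (0.593 TPM) and Slco4a1 (0.0467 TPM) and the choline carrier family member Flvcr2 (0.0267 TPM).

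Pairs of related genes, or in the case of Slc3a2 and Slc7a5 of partner chains, kept their order across the libraries. In each of 20 pairs examined the log2 ratio of TPM + 1 had the same sign in 3 of 3 libraries, and both genes were members in 17. Slc43a2 exceeded Slc43a3, a purine nucleobase carrier, by 5.56 ± 0.25. Slc25a3 exceeded the acylcarnitine carrier Slc25a20 by 3.50 ± 0.16. Slc20a1 exceeded Slc20a2 by 2.80 ± 0.10, and by 3.36 with a pseudocount of 0.1 and 1.74 with 5. The differences were smaller in the following pairs. Slc7a7 exceeded Slc7a6 by 2.58 ± 0.19 and Slc39a1 exceeded Slc39a7 by 1.38 ± 0.08. Slc36a1 exceeded Slc36a4 by 0.62 ± 0.02. In other pairs the gene named first was the lower. The bicarbonate cotransporter Slc4a7 was below the anion exchanger Slc4a2 at -1.36 ± 0.44. Slc25a1 was below Slc25a11 at -0.80 ± 0.10 and Slc38a2 was below Slc38a1 at -0.76 ± 0.36. The CMP-sialic acid carrier Slc35a1 was below the UDP-galactose carrier Slc35a2 at -0.77 ± 0.37, and at -0.46 by CPM. For Slc15a3 over the other lysosomal peptide carrier Slc15a4 the ratio was 2.58 ± 0.42 by TPM and 3.38 by CPM. The TPM of Slc15a4 rests in part on a short transcript, as given below. Pairs with a gene under 1 TPM depend on the pseudocount: Slc1a5 over Slc1a4 (Slc1a4 was no member) gave 1.65 ± 0.29 with a pseudocount of 1 TPM, 3.94 with 0.1 and 0.54 with 5, and Slc7a5 over Slc7a8 gave -3.85 ± 0.06, -4.94 and -2.31. The zinc exporter pair Slc30a5 over Slc30a7 gave 0.79 ± 0.44 by TPM, but -0.15 by CPM, where transcript length is not divided out.

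Spread between the replicates was tested with edgeR against the trend of all genes at the same level, which asks whether a gene varied more than its level predicts. None of the 153 members was beyond the trend at an adjusted p under 0.05 (edgeR, Benjamini-Hochberg over 12250 genes), beside 1.56% of all genes tested (191 genes). At an unadjusted p under 0.05 there were 6 members (3.92%), beside 6.32% of all genes tested. The count of members called was also 0 with DESeq2 size factors and under each of the other 6 alternatives. The median SD of log2 CPM between libraries was 0.163 for the members, against 0.140 for coding genes of 1 TPM or more and 0.161 for all genes tested.

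**Figure D3:**
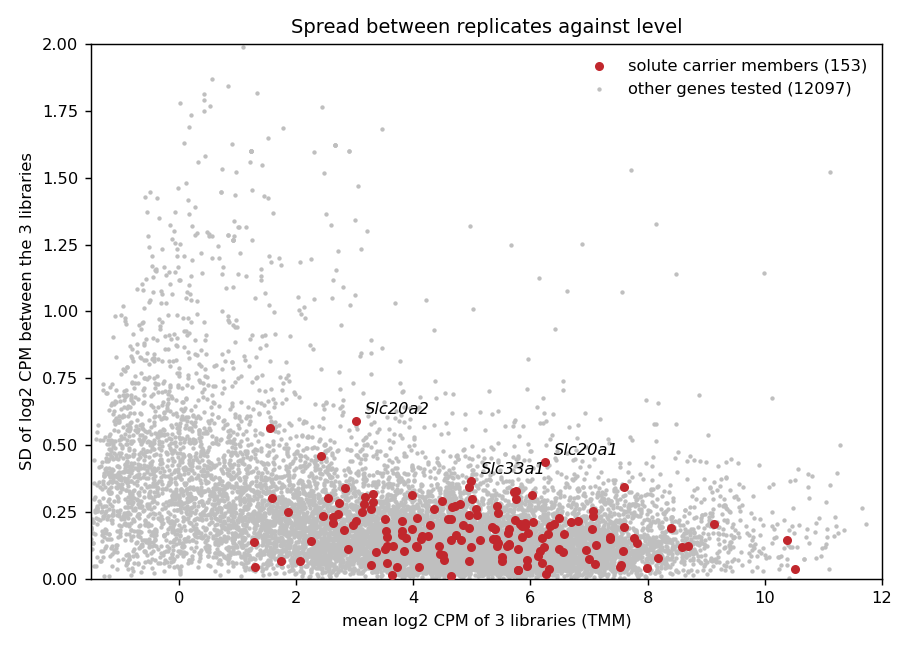
SD of log2 CPM between the 3 libraries against mean log2 CPM (TMM normalised) for 153 members (red) and 12097 other genes tested (grey, 32 of them outside the axes). The members lie within the cloud of other genes; the 3 with the smallest p are named.

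The member with the smallest p was Slc20a1, at 6.38, 5.76 and 6.60 log2 CPM in replicates 1, 2 and 3 (edgeR, adjusted p = 0.159). Replicate 2 was the low library. Its promoter window, with the E-box 2 times, is printed above. Slc20a2 had the second smallest, at 3.35, 2.34 and 3.37 log2 CPM (edgeR, adjusted p = 0.357). These are the 2 genes of the SLC20 family of phosphate importers, and neither passed adjustment. The next were Slc33a1, which brings acetyl-CoA into the endoplasmic reticulum (edgeR, adjusted p = 0.521), the potassium-chloride cotransporter Slc12a4 (edgeR, adjusted p = 0.681), the zinc exporter Slc30a5 (edgeR, adjusted p = 0.75) and Slc35f5 (edgeR, adjusted p = 0.781). Slc6a6 varied little, with an SD of 0.04 log2 CPM. Of the 24 carriers and partners with other names 1 was beyond the trend, beside 1.56% of all genes tested. It was Emb, a chaperone of monocarboxylate carriers (edgeR, adjusted p = 0.0456). Its counts were 6863, 4179 and 5340 before normalisation. By TPM, which ran lower in replicate 3 for most coding genes, it stood at 46.70, 30.18 and 17.98.

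Once libraries were normalised, replicate 2 stood apart for the members, a pattern noticed after the values were seen. It was the lowest library for 91 of 153 members (59.5%), against 35.7% of coding genes of 1 TPM or more. Relative to the mean of replicates 1 and 3, replicate 2 was higher for 42 of 153 members, with a median difference of -0.16 log2 CPM, against 4850 of 9472 coding genes and a median of 0.01. The classes were not alike. Of the mitochondrial carriers 22 of 33 were higher in replicate 2, with a median of 0.05, led by Slc25a16, Slc25a23 and Slc25a28. This sign turned with the scaling: by TPM rescaled to equal coding sums 16 of 33 were higher, with a median of -0.011, where coding genes had -0.03. Of the other members 20 of 120 were higher, with a median of -0.24. Inorganic ion carriers had the lowest median, at -0.38 with 1 of 20 higher (Slc9a9), and nucleotide sugar and nucleoside carriers had -0.25 with 3 of 22 higher. Metal ion carriers had -0.23 with 4 of 22 higher, organic solute carriers -0.24 with 4 of 23 higher, amino acid carriers -0.15 with 5 of 20 higher, sugar carriers -0.12 with 2 of 10 higher and the partners -0.16 with 1 of 3 higher. The largest differences were those of Slc20a2 at -1.02, Slc22a4 (an organic cation carrier) at -0.95 and Slc20a1 at -0.73, and on the other side Slc46a1, the proton-coupled folate carrier, at 0.49. Without replicate 2 the median SD of the members fell to 0.0917 log2 CPM, against 0.117 for all genes tested. It was 0.144 against 0.152 without replicate 1, and 0.172 against 0.143 without replicate 3. Replicate 2 was singled out by these same values, so the fall is no separate evidence. Across the members the difference had a Spearman rho of 0.10 with the GC content and -0.13 with the length of the main transcript, as a description. The 3 libraries are single samples, and the part that library composition or fractionation has in the replicate 2 difference was not tested. Whether the difference is particular to solute carriers was not tested either. Replicates 1 and 2 had similar totals, and counts of genes with other names also moved both ways between them. Unc93b1 had 22410 and 17177, and the macrophage marker Adgre1 30579 and 21771, but Glmp 6785 and 7983. Of mitochondrial transport genes, Sfxn1 had 1053 and 1226 and Mcu 388 and 526, but Letm1 1438 and 1234.

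**Figure D4:**
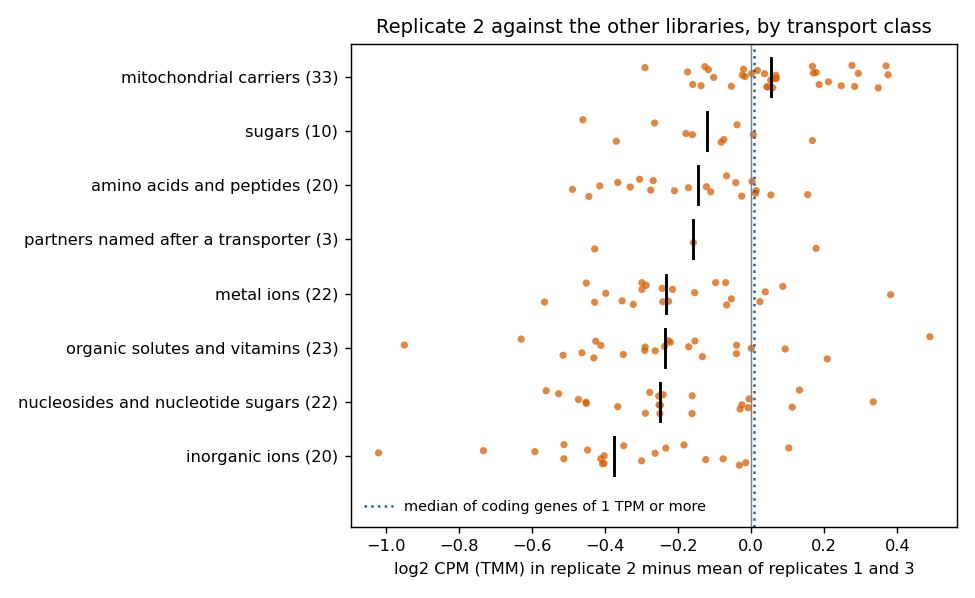
Log2 CPM in replicate 2 minus the mean of replicates 1 and 3 for each member (points) by transport class, with a black line at the class median. Mitochondrial carriers centre at 0.05 while the other classes centre between -0.38 and -0.12; the dotted line marks the median of coding genes of 1 TPM or more.

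Most members were carried by a dominant transcript. The main transcript, the one with the highest mean TPM, held a median of 84.5% of the gene's TPM in the first transcript table and 76.4% in the second, against 82.9% and 77.4% for coding genes of 1 TPM or more. Both tables named the same main transcript for 139 members (90.8%), beside 91.9% of coding genes of 1 TPM or more. A main transcript annotated as not protein-coding in both tables occurred in 3 members (1.96%), beside 3.69%. In Slc27a1, a fatty acid transport protein, retained intron transcripts led. Slc27a1-202 had 10.66, 15.38 and 7.72 TPM and Slc27a1-205 10.75, 9.14 and 10.01 TPM, while the protein-coding Slc27a1-207 was at 1.53, 0 and 0 TPM. The second table placed more on Slc27a1-207, at 2.75, 3.89 and 1.19 TPM, so how much of this gene's RNA is coding depends on the table. In Slc35b4, a Golgi carrier of UDP-sugars, the retained intron transcript Slc35b4-204 had 7.94, 7.60 and 5.22 TPM, against 5.11, 5.93 and 3.54 TPM for the protein-coding Slc35b4-201. In Slc25a12, an aspartate-glutamate carrier, Slc25a12-207, annotated for nonsense-mediated decay, had 4.88, 3.76 and 2.89 TPM, against 1.39, 1.47 and 0.86 TPM for the protein-coding Slc25a12-206. In all 3 genes the non-coding main transcript was above the protein-coding one in each library of the first table.

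**Figure D5:**
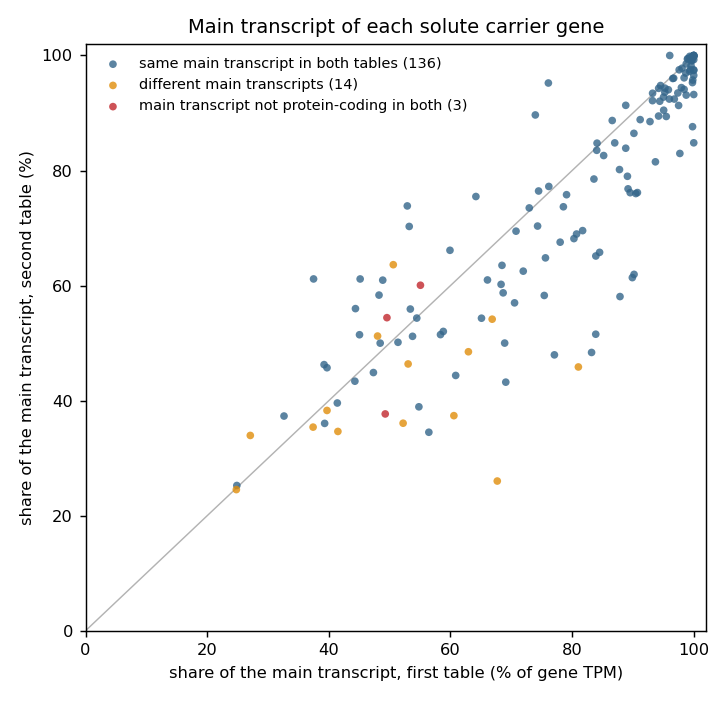
Share of the gene's TPM held by the main transcript, in the first transcript table (x axis) and the second (y axis), for 153 members. The same main transcript in both tables gives blue points (136) or, where it is not protein-coding, red points (3); 14 members with different main transcripts are orange, and many members sit near 100% in both.

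A few levels rested on how reads were divided among short transcripts. The effective length of the gene, by which its count is divided, differed over 1.5 times between libraries in 5 members (3.27%), beside 2.85% of coding genes of 1 TPM or more. Slc15a4 (chr5:127595664-127632897, minus strand) was one of them. Its TPM was 17.59, 39.80 and 19.92, yet its counts were 2371, 1771 and 2942, so that replicate 2 was highest by TPM and lowest by count. The short processed transcript Slc15a4-211 was at 0, 22.82 and 9.29 TPM, whereas the protein-coding Slc15a4-201 was at 14.72, 11.98 and 8.95 TPM. The other 4 were Slc19a1 (reduced folate carrier), Slc30a7 (zinc exporter), Slc35a2 and Slc37a3. In Slc35a2 the short transcript Slc35a2-212 was at 0.35, 3.89 and 1.03 TPM, which bears on its ratio to Slc35a1 above. In Slc30a7 the short processed transcript Slc30a7-203 was at 5.81, 2.21 and 0 TPM, beside 5.14, 4.23 and 3.52 TPM for the protein-coding Slc30a7-201, which bears on its ratio to Slc30a5 above. The zinc transport protein gene Slc30a9 was the 1 member whose tables differed over 2 times in every library after the overall ratio between tables was taken out (0.654% of members), beside 0.443% of coding genes of 1 TPM or more. It stood at 7.43, 7.02 and 5.18 TPM in the gene table and 7.48, 7.13 and 3.58 TPM in the second table, where a typical coding gene had 0.466, 0.491 and 0.303 times its gene-table TPM.

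Of the members 23 overlap another gene of 1 TPM or more, and the labels do not say whether counting used strand. Among those whose values lead above, Slc15a3 overlaps Tmem132a on the opposite strand, Slc20a1 overlaps Gm4430, Slc43a2 overlaps Gm45606, Slc25a3 overlaps Gm24119, Slc37a2 overlaps Gm10177, Slc31a1 overlaps Cdc26 and Slc48a1 overlaps Hdac7. Others named above with such a partner were Slc7a7 (Oxa1l), Slc19a1 (Col18a1), Slc25a11 (Rnf167), Slc4a2 (Fastk), Slc4a1ap (Supt7l) and Slc20a2 (Smim19). Reads of such genes may be divided between the partners, and the levels carry that uncertainty. Processed pseudogenes can also share reads with their parent gene: Slc25a5-ps was listed at 0 in every library and Slc39a1-ps averaged 0.06 TPM, while copies under other names were not examined.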

How the data were processed

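Ribosomal RNA-depleted cytosolic RNA (1 µg, size range 250 to 400) of 3 BMDM libraries was analysed. Per the labels, the deposited tables use mm10. Their IDs all matched GENCODE M21. The aligner, the quantifier and the strand setting: not given in the sources used here. Each library has a deposited gene table with the authors' expected counts (estimated, not whole) and TPM, a transcript table of the same kind, and a second transcript table with the authors' estimated counts and TPM, which were summed per gene. Expected counts were rounded and filtered with filterByExpr, TMM-normalised and fitted with edgeR 4.0.16 (R 4.3.3) with an intercept and trended dispersion; each gene's goodness of fit was tested and adjusted over all genes. The script was tested on simulated counts with known shifts in 1 library. DESeq2 1.42.0 gave size factors for an alternative. Log2 CPM used a prior count of 2, pair ratios a pseudocount of 1 TPM. Library totals of 37136495 to 58889061 set the precision.

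The members, gene lists and pairs were chosen with earlier results of these data known. Named genes were the 15 highest members, the 3 highest of each class, the members with the smallest spread p, those beside the threshold, those with a non-coding main transcript or differing tables, the pairs, and the highest and the low genes of the other carriers; the remaining ones were named after their values were seen. Some genes that this rule gives are not reported here. Alternatives were another table, scaling, filter, pseudocount, CPM and leaving out each replicate.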

Additional observations from a re-analysis of the deposited data

How the results depend on the processing

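No paired analysis was possible because the series holds 1 group. The count of members beyond the trend was 0 in every alternative run. Over all genes the count of 191 became 103 with protein-coding genes alone and lay between 64 and 110 when 1 replicate was left out (99 without replicate 1, 110 without replicate 2 and 64 without replicate 3), fits that rest on fewer samples; in the other alternatives it lay between 174 and 220. The number of members was 134 by the second transcript table, 135 at 2 TPM, 162 at 0.5 TPM and 152 to 153 without 1 replicate. The cut of 1 TPM was kept for the second table, where a typical coding gene had 0.466, 0.491 and 0.303 times its gene-table TPM. The members' median level was 3.55 TPM in the second table. The median share of the main transcript was 76.4% there, 87.8% for members of 5 TPM or more alone and 85.2% to 86.9% without 1 replicate. By CPM in place of TPM, which leaves transcript length in, the class share became 40.2% for amino acids and peptides. Mitochondrial carriers had 12.6%. Inorganic ions had 11.07% and metal ions 11.06%, so metal ions no longer stood ahead of inorganic ions. Nucleosides and nucleotide sugars had 9.15%, organic solutes and vitamins 8.68%, sugars 5.41% and partners 1.86%. By the second table sugars had 4.80%. Of the 20 pairs, 19 kept their sign by CPM and all 20 by the second transcript table. Slc30a5 over Slc30a7 turned to -0.15 by CPM. Neither another pseudocount nor leaving out 1 replicate can change a sign that all libraries share. The sizes of the ratios were less stable: 47 of 140 moved by more than the SD between libraries. That count leaves out Slc30a5 over Slc30a7 by CPM, which changed sign. The 140 include ratios without 1 replicate, which cannot move that far with 3 libraries. Of alternatives chosen after seeing the data, the replicate 2 difference of mitochondrial carriers was -0.011 by rescaled TPM (16 of 33 higher), where coding genes had -0.03, and 0.05 to 0.10 otherwise; that of the other members stayed between -0.28 and -0.19. The causes of these shifts were not tested. Depth limits the lowest members, which had 71 counts or more per library.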
